A study of Mus musculus with 12 samples.

Results

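The p53 pathway genes followed here, 10 of the 24589 genes in the deposited table, were measured in mouse leukemic cells before and during a block of transcription. They were chosen by symbol, with earlier results of these data known, and each matched 1 row. They are Trp53 itself, its inhibitors Mdm2 and Mdm4, the growth arrest genes Cdkn1a, Ccng1, Btg2 and Gadd45a, and the effectors Zmat3, Phlda3 and Ei24. The cells were Tet2 KO or wild type (WT) NRAS/AE9a leukemic cells, an acute myeloid leukemia line that by its name carries NRAS and AE9a, a short form of the fusion protein AML1-ETO. Both genotypes grew in medium with the cytokines SCF, IL-3 and IL-6 and the selection drugs G418 and puromycin, and both received actinomycin D at 5 µg/ml, sampled for KO at 0, 4 and 8 h and WT at those same times, which makes 6 groups of 2 libraries. The 0 h libraries are the state before the block. The labels name 1 line of each genotype and do not say whether it was a clone, so Tet2 loss and any other difference between the KO and WT cells cannot be told apart. Whether a group's 2 libraries stem from different cultures is not stated either, and p-values therefore cover only their mutual spread, possibly a technical one.

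The p53 protein is a transcription factor that is stabilised when DNA is damaged or ribosome assembly is disturbed. MDM2, a ubiquitin ligase, marks p53 for degradation and is itself a p53 target, which closes a feedback loop. MDM4, a relative of MDM2 with little ligase activity of its own, binds p53 and blocks its transcriptional activity, and in acute myeloid leukemia both inhibitors are known for holding back an unmutated p53. Actinomycin D intercalates into DNA and stops RNA polymerases, so after it is added the level of an mRNA reflects its loss and no longer its synthesis.

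Values are TPM, the length-corrected share of a gene among the transcripts of a library, and the sequencing depth is unknown. A TPM does not separate fewer expressing cells from less RNA per cell. Because TPM are shares of a library, a change after actinomycin D is relative to the other transcripts. The median over 11152 tested genes was a log2 change of -1.16 at 8 h in KO cells and -1.40 in WT cells. Median-ratio scaling, which sets the typical gene to about 0, is therefore used as an alternative. Of the 7 myeloid markers 7 were tested, with a summed level of 771 to 1116 TPM in KO libraries and 461 to 1029 TPM in WT libraries. Single markers differed either way at 0 h: Mpo had 146 and 137 TPM in KO against 28.5 and 33.5 TPM in WT libraries, and Elane had 29.1 and 27.6 TPM in KO against 89.0 and 96.3 TPM in WT libraries. Their part in the results below was not tested. T cell markers summed to at most 0.03 TPM in KO libraries and 0.32 TPM in WT libraries, with Cd3d and Cd3g at 0 throughout. Stromal and endothelial markers summed to at most 0.23 TPM in KO libraries and 0.95 TPM in WT libraries. The hemoglobin gene Hba-a1 had 0 to 7.43 TPM in KO and 1.46 to 7.42 TPM in WT libraries, and Hbb-bs and the B cell factor Pax5 were at 0. Tet2 had 10.2 and 10.2 TPM in KO libraries at 0 h, against 13.05 and 16.03 TPM in WT libraries, a log2 change of -0.47 ± 0.13 (SE, limma adjusted p = 0.0167). It no longer passed once WT 0 h replicate 2 was left out (0.105), nor with only 1 of the KO 0 h libraries (0.0928 without the first, 0.0964 without the second), and a level per gene does not show which exons the knockout removed. Tet2 was also lower in KO cells at 4 h (-0.68, adjusted p = 0.0014) and at 8 h (-0.38, adjusted p = 0.0259), without overlap.

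The 3' untranslated regions of these mRNAs differ in length and in AU-rich sequence, a feature known to mark short-lived transcripts. On GRCm38, with 1 principal GENCODE M21 transcript per gene, the region was 6692 nt long in Zmat3, 5436 nt in Mdm4, 1335 nt in Mdm2 and 441 nt in Trp53, against a median of 987 nt over 10436 tested genes. The AU-rich core ATTTA, searched on the transcribed strand only, occurred 8 times in Mdm2, a density of 5.99 per 1000 nt, against a median of 1.27. It occurred 11 times in Mdm4, 8 in Ccng1 and Zmat3, 5 in Btg2, 4 in Cdkn1a, 3 in Ei24, 2 in Gadd45a, 1 in Trp53 and 0 in Phlda3, and at least once in 66.8% of tested genes. The longer TTATTTATT, which contains the core, was found once in Mdm2, in none of the other 9, and in 7.35% of tested genes. Windows of 30 bases are shown for some of the genes with a match, Mdm2, Btg2, Mdm4, Trp53 and Ei24. They are written as DNA with each ATTTA in capitals and chosen as the window with most matches. They lie at chr10:117689806-117689835 (minus strand) for Mdm2, chr1:134076017-134076046 (minus) for Btg2, chr1:132988676-132988705 (minus) for Mdm4, chr11:69591764-69591793 (plus) for Trp53 and chr9:36779813-36779842 (minus) for Ei24.
Mdm2: ataagaacATTTAATTTATTTAgtgtcttt
Btg2: aATTTAtttgtagatgtgtgcaatATTTAc
Mdm4: cgcccATTTAggatgtagtagATTTAtgat
Trp53: aaagcctgtctgcATTTAtccaccccccac
Ei24: ctttccttgtgtcATTTAccctcccacttc
The window of Mdm2 holds 3 clustered cores, those of Btg2 and Mdm4 hold 2 each, and those of Trp53 and Ei24 hold 1 each. Of the windows not shown, that of Ccng1 holds 2, and those of Cdkn1a, Gadd45a and Zmat3 hold 1 each. Over the whole region the density per 1000 nt was 3.55 in Gadd45a, 3.45 in Ccng1, 3.16 in Ei24 and 3 in Cdkn1a. It was 2.27 in Trp53 and Btg2, 2.02 in Mdm4, 1.2 in Zmat3 and 0 in Phlda3. Whether the density of ATTTA follows the losses below was not tested. A match is a description of the sequence and not a measured binding site.

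Trp53 mRNA was among the most abundant of the 10 at the start and its loss over 8 h differed most between the genotypes. KO libraries held 160.2 and 162 TPM of it before the drug, 118 and 103 TPM after 4 h, then 61.3 and 60.5 TPM after 8 h. WT libraries held 125 and 157 TPM of it before the drug, 84.0 and 78.3 TPM after 4 h, then 21.0 and 22.4 TPM after 8 h. Both KO libraries lay above both WT libraries at each time, and the gap was widest at 8 h, when KO cells had 2.80 times the WT mean. On the log2(TPM + 1) scale the KO against WT difference was 0.20 ± 0.10 (SE) at 0 h, 0.44 ± 0.10 at 4 h and 1.45 ± 0.10 at 8 h, with limma adjusted p-values over all tested genes of 0.184, 0.00525 and 4.1e-07. Without KO 4 h replicate 1 the 4 h difference was 0.34 and its call was lost. With 1 library left out, the 0 h difference ranged from 0.04 to 0.36 (without WT 0 h replicate 2). At 8 h, 37.8% of the 0 h mean was left in KO cells and 15.4% in WT cells, while the median gene kept 35.1% in KO and 28.4% in WT cells. Trp53 thus sat near the typical gene in KO cells and below it in WT cells.

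The difference between the genotypes in the 0 to 8 h change of Trp53 was 1.25 ± 0.15 (SE, limma adjusted p = 0.0004), above 99.5% of tested genes. It was 1.01 after median-ratio scaling (adjusted p = 0.00046). Over 0 to 4 h the difference was 0.24 ± 0.15 (adjusted p = 0.454). Over 4 to 8 h, an interval added after the 8 h values were seen, it was 1.01 ± 0.15 (adjusted p = 0.0019), with changes of -0.85 ± 0.10 in KO cells and -1.85 ± 0.10 in WT cells. Scaled by median ratios, these changes were -0.35 in KO cells (adjusted p = 0.002) and -1.20 in WT cells (5.5e-07). Under that scaling Trp53 was higher at 4 h than at 0 h, by 0.38 in KO and 0.21 in WT cells (limma adjusted p = 0.00076 and 0.0188). Its scaled change from 0 to 8 h was 0.02 in KO cells (0.765) and -0.98 in WT cells (5.2e-07). Trp53 lies on the plus strand of chromosome 11 from 69580359 to 69591873 (GRCm38), and a pseudogene, Trp53-ps, is annotated, so some of its reads may be shared.

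**Figure D1:**
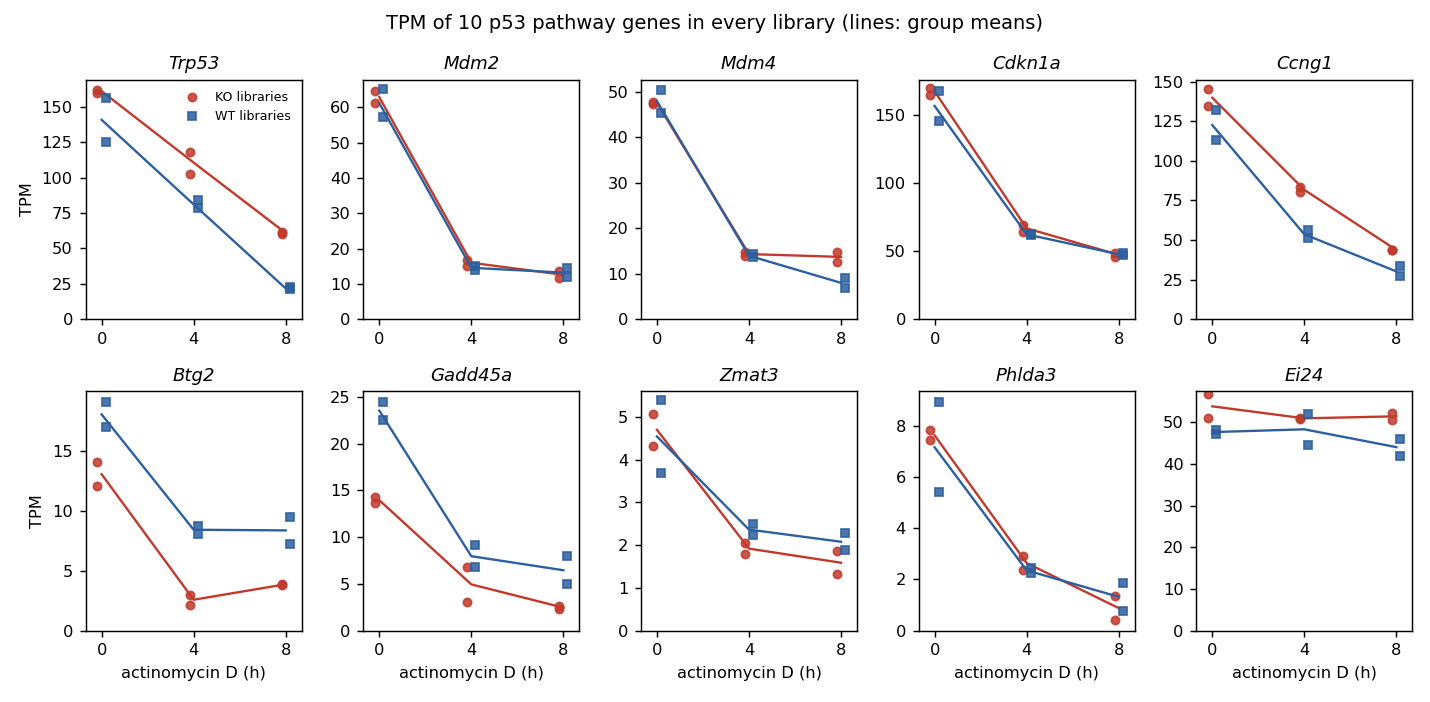
TPM (vertical axis, from 0, a separate scale for each gene) of the 10 genes against hours of actinomycin D in KO libraries (red circles) and WT libraries (blue squares), with lines through the means of 2 libraries. Trp53 separates by genotype at 8 h, Mdm4 levels off after 4 h in KO cells, Btg2 and Gadd45a run lower in KO cells, and Ei24 stays near 50 TPM.

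Mdm2, the ubiquitin ligase for p53 (chr10:117688875-117710758, minus strand), was lost early and alike in level in both genotypes. Its TPM in KO libraries were 64.7 and 61.1 untreated, 16.8 and 15.1 by 4 h, then 11.6 and 13.5 by 8 h. Its TPM in WT libraries were 57.2 and 65.1 untreated, 13.9 and 15.2 by 4 h, then 11.9 and 14.5 by 8 h. The KO and WT libraries overlapped at each of the 3 times. Most of the loss was over by 4 h, when 25.4% of the 0 h mean was left in KO cells and 23.8% in WT cells, against 19.97% in KO and 21.5% in WT cells at 8 h. The 4 h changes were -1.91 ± 0.12 in KO and -1.998 ± 0.12 in WT cells (SE, limma adjusted p = 3e-08 and 2.2e-08). The 8 h difference between KO and WT cells was -0.06 ± 0.12 (95% interval -0.32 to 0.20, limma adjusted p = 0.697). After median-ratio scaling it was -0.33 and passed (adjusted p = 0.0182).

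Mdm4, the second inhibitor, fell with Mdm2 up to 4 h and then parted by genotype. In KO cells the untreated libraries showed 47.4 and 47.7 TPM, those of 4 h 14.7 and 14.0 TPM, those of 8 h 14.8 and 12.6 TPM. In WT cells the untreated libraries showed 45.4 and 50.5 TPM, those of 4 h 13.7 and 14.3 TPM, those of 8 h 6.95 and 9.02 TPM. The groups overlapped at 0 and 4 h and did not overlap at 8 h, when KO cells had 1.71 times the WT mean. The log2 difference at 8 h was 0.71 ± 0.12 (SE, limma adjusted p = 0.00038). Between 4 and 8 h Mdm4 changed by -0.06 ± 0.12 in KO cells (adjusted p = 0.696) and fell by 0.74 ± 0.12 in WT cells (adjusted p = 0.00019). Scaled by median ratios, it instead rose by 0.41 in KO cells (adjusted p = 0.0047) and changed by -0.12 in WT cells (0.296), while the difference between the genotypes still passed (0.53, adjusted p = 0.0304). The difference of the 0 to 8 h changes was 0.73 ± 0.17 (adjusted p = 0.0125), and leaving out WT 0 h replicate 2 put it past 0.05 (0.0518), the top of adjusted p-values that reached from 0.0037 across 16 alternatives. Mdm4 (chromosome 1, 132959484 to 133030561, minus strand, GRCm38) has an annotated pseudogene, Mdm4-ps, and overlaps another pseudogene on the opposite strand.

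Ratios within a library do not depend on how the library is scaled. Mdm2 had 0.404 and 0.376 times the TPM of Trp53 in untreated KO libraries, 0.142 and 0.147 times after 4 h, then 0.189 and 0.223 times after 8 h. WT ratios were 0.457 and 0.415 untreated, 0.166 and 0.194 after 4 h, then 0.564 and 0.647 after 8 h. At each time both KO libraries lay below both WT libraries. Averaged over the times, the log2 ratio was lower in KO cells by a difference of -0.68 (exact 2-sided permutation test of genotype within times, n = 6 libraries each, p = 0.00926, the smallest this test can give, adjusted p = 0.0185 over 2 ratios). The 8 h libraries gave most of it, with a log2 difference of -1.56 at 8 h, -0.31 at 4 h and -0.16 at 0 h.

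The ratio of Mdm2 to Mdm4 was 1.36 and 1.28 in untreated KO libraries, 1.15 and 1.08 after 4 h, then 0.784 and 1.07 after 8 h. WT ratios were 1.26 and 1.29 untreated, 1.02 and 1.06 after 4 h, then 1.71 and 1.61 after 8 h. It was thus lower in both KO libraries at 8 h and not at 0 or 4 h. Averaged over the times the log2 difference was -0.23 (exact 2-sided permutation test, n = 6 each, p = 0.324, adjusted p = 0.324). At 8 h alone it was -0.85, a comparison of 2 against 2 libraries that was not tested.

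**Figure D2:**
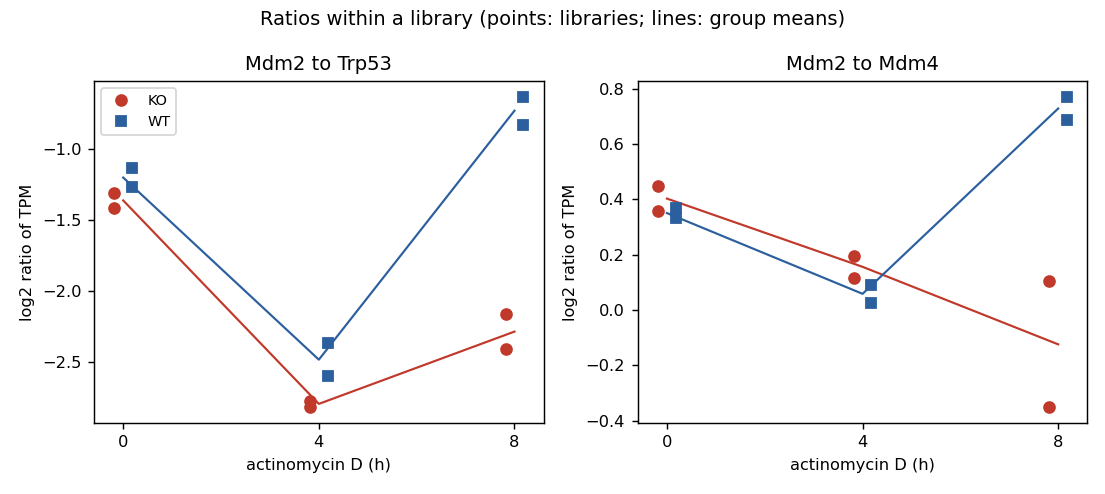
Log2 ratio of the TPM of Mdm2 to that of Trp53 (left) and to that of Mdm4 (right) against hours of actinomycin D, in KO libraries (red circles) and WT libraries (blue squares), with lines through group means. Both panels part by genotype at 8 h, where the Mdm2 to Trp53 ratio averaged -2.28 in KO and -0.73 in WT libraries on the log2 scale.

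Cdkn1a, which encodes the cell cycle inhibitor p21 and is a classic p53 target, had the highest mean of the 10 genes at 0 h in both genotypes. KO libraries held 170.0 and 165 TPM of it before the drug, 69.2 and 64.5 TPM after 4 h, then 48.8 and 45.9 TPM after 8 h. WT libraries held 146 and 168 TPM of it before the drug, 62.25 and 62.6 TPM after 4 h, then 48.3 and 47.2 TPM after 8 h. The groups overlapped at 0 and 8 h, and at 4 h the KO libraries lay slightly higher. The KO against WT difference was 0.10 ± 0.08 at 4 h (SE, limma adjusted p = 0.363) and -0.01 ± 0.08 at 8 h (95% interval -0.19 to 0.16, adjusted p = 0.908). After median-ratio scaling the 8 h difference was -0.29 and passed (adjusted p = 0.0026). Cdkn1a lies at chr17:29090976-29100727 on the plus strand. At 8 h 28.2% of its 0 h mean was left in KO cells and 30.4% in WT cells.

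Ccng1 (chr11:40748552-40755311, minus strand), which encodes cyclin G1, a p53 target that recruits the phosphatase PP2A to MDM2, was higher in KO cells after the block. Its TPM in KO libraries were 145 and 134 untreated, 80.2 and 83.2 by 4 h, then 43.6 and 43.7 by 8 h. Its TPM in WT libraries were 113 and 132 untreated, 56.2 and 51.0 by 4 h, then 27.0 and 33.3 by 8 h. The groups did not overlap at any of the 3 times. KO against WT was 0.19 ± 0.11 at 0 h (SE, limma adjusted p = 0.218), 0.60 ± 0.11 at 4 h (adjusted p = 0.00088) and 0.53 ± 0.11 at 8 h (adjusted p = 0.0012). The difference of the 0 to 8 h changes was 0.34 ± 0.15 and did not pass (adjusted p = 0.135). With 1 library left out it ranged from 0.19 to 0.48 (without WT 8 h replicate 2), and after median-ratio scaling it was 0.09 (adjusted p = 0.602). The KO against WT difference of Ccng1 at 8 h was 0.26 under that scaling and still passed (adjusted p = 0.0118).

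Btg2 (chr1:134075170-134079120, minus strand), an antiproliferative gene whose protein binds the CCR4-NOT deadenylase, went the other way and was lower in KO cells at 4 and 8 h. In KO cells the untreated libraries showed 12.04 and 14.03 TPM, those of 4 h 3.02 and 2.15 TPM, those of 8 h 3.92 and 3.83 TPM. In WT cells the untreated libraries showed 16.95 and 19.1 TPM, those of 4 h 8.76 and 8.07 TPM, those of 8 h 7.25 and 9.47 TPM. Every KO library lay below every WT library of its time. KO against WT was -0.44 ± 0.16 at 0 h (SE, limma adjusted p = 0.0589), -1.40 ± 0.16 at 4 h (adjusted p = 3.7e-05) and -0.93 ± 0.16 at 8 h (adjusted p = 0.00035). In the 4 h libraries 19.8% of the 0 h mean was left in KO cells and 46.7% in WT cells, and by 8 h 29.7% in KO and 46.4% in WT cells. From 4 to 8 h the share of Btg2 rose by 0.45 ± 0.16 in KO cells (adjusted p = 0.0283) and changed by -0.02 ± 0.16 in WT cells (adjusted p = 0.933). Scaled by median ratios, it rose by 0.87 in KO cells (adjusted p = 0.00047) and by 0.61 in WT cells (0.0041), and the difference between the genotypes in that interval did not pass with or without scaling (0.415 and 0.198). The difference of the 0 to 4 h changes was -0.96 ± 0.22 and missed the threshold (adjusted p = 0.0919). It passed at -1.07 after median-ratio scaling (adjusted p = 0.0369), as did the difference of the 0 to 8 h changes, which was -0.49 ± 0.22 (0.143) before that scaling and -0.80 (0.0205) after it.

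Gadd45a (chr6:67035096-67037457, minus strand), a stress gene linked to growth arrest and DNA repair, was lower in KO cells at 8 h. KO libraries held 14.3 and 13.6 TPM of it before the drug, 6.81 and 3.11 TPM after 4 h, then 2.33 and 2.62 TPM after 8 h. WT libraries held 24.5 and 22.6 TPM of it before the drug, 9.14 and 6.81 TPM after 4 h, then 5.00 and 7.95 TPM after 8 h. The KO libraries lay below the WT libraries at 0 and 8 h and met them at 4 h. KO against WT was -0.71 ± 0.26 at 0 h (SE, limma adjusted p = 0.0646), -0.65 ± 0.26 at 4 h (0.0665) and -1.08 ± 0.26 at 8 h (0.0044). With 1 library left out, the 4 h difference ranged from -1.11 (without KO 4 h replicate 1) to -0.19. The noncoding E230016M11Rik overlaps Gadd45a on the other strand and had at most 0.78 TPM in any library.

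The 2 effectors with the lowest levels followed the growth arrest genes down. Zmat3 (chr3:32334792-32366014, minus strand) encodes a zinc finger protein that binds RNA. Its TPM in KO libraries were 5.07 and 4.32 untreated, 1.79 and 2.05 by 4 h, then 1.86 and 1.32 by 8 h. Its TPM in WT libraries were 3.69 and 5.39 untreated, 2.24 and 2.49 by 4 h, then 1.88 and 2.28 by 8 h. Phlda3 (chr1:135766119-135769136, plus strand) encodes a protein that competes with AKT for membrane lipids. In KO cells the untreated libraries showed 7.82 and 7.42 TPM, those of 4 h 2.92 and 2.36 TPM, those of 8 h 1.34 and 0.43 TPM. In WT cells the untreated libraries showed 5.4 and 8.91 TPM, those of 4 h 2.45 and 2.26 TPM, those of 8 h 1.86 and 0.79 TPM. For both genes the KO and WT libraries overlapped at 0 h. At 4 and 8 h those of Phlda3 overlapped, and the KO libraries of Zmat3 lay below its WT libraries. The 8 h differences of Zmat3 and Phlda3, -0.25 ± 0.18 and -0.31 ± 0.27 (SE), did not pass (limma adjusted p = 0.261 and 0.381). After median-ratio scaling that of Zmat3 was -0.50 and passed (adjusted p = 0.0208), and that of Phlda3 was -0.56 (0.182). At such low TPM the added pseudocount of 1 understates changes, and the 95% interval for Phlda3 at 8 h ran from -0.90 to 0.29.

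Ei24 (chr9:36779159-36797393, minus strand), an endoplasmic reticulum protein first found as a p53-induced gene, was the exception among the 10, with no detectable change in share. KO libraries held 56.7 and 51.0 TPM of it before the drug, 51.1 and 50.8 TPM after 4 h, then 50.55 and 52.4 TPM after 8 h. WT libraries held 47.3 and 48.1 TPM of it before the drug, 44.7 and 52.0 TPM after 4 h, then 42.0 and 46.1 TPM after 8 h. Its 8 h change was -0.06 ± 0.09 in KO cells (SE, 95% interval -0.26 to 0.14, limma adjusted p = 0.531) and -0.11 ± 0.09 in WT cells (-0.31 to 0.09, adjusted p = 0.257). After median-ratio scaling these were gains of 1.34 in KO cells (adjusted p = 2.3e-07) and 1.54 in WT cells (8.3e-08). Ei24 therefore lay above the typical gene, higher than 82.4% of tested genes in KO and 84.7% in WT cells. By mean TPM it was the second of the 10 genes at 8 h in both genotypes. Both KO libraries lay above both WT libraries at 0 and 8 h, with a KO against WT difference of 0.22 ± 0.09 at 8 h (limma adjusted p = 0.0627) that passed without WT 8 h replicate 2 (0.0491) and was -0.05 after median-ratio scaling (0.644).

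**Figure D3:**
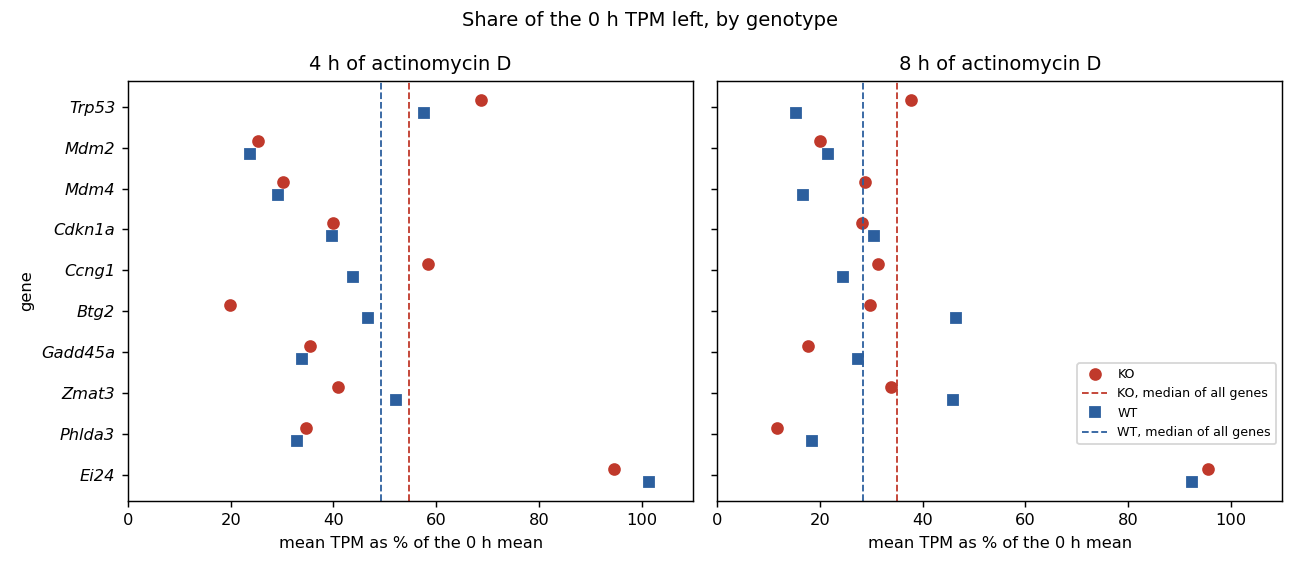
Mean TPM as a percentage of the 0 h mean (horizontal axis) at 4 h (left) and 8 h (right) for each gene, in KO cells (red circles) and WT cells (blue squares), each a mean of 2 libraries. Dashed lines give the median over genes with at least 1 TPM at 0 h, and Ei24 stands near 100% while Trp53 lies at 37.8% in KO and 15.4% in WT cells at 8 h.

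Together, 9 of the 10 genes, all but Ei24, fell at 4 h in KO cells and 9 in WT cells, and 0 rose. Of all tested genes at 4 h, 72.8% passed in KO cells (4.88% higher, 68% lower) and 77.8% in WT cells (6.77% higher, 71% lower). The same 9 genes were lower at 8 h in KO and in WT cells and 0 higher. Of all tested genes at 8 h, 84.9% passed in KO cells (9.54% higher, 75.4% lower) and 88.7% in WT cells (8.48% higher, 80.2% lower). From 4 to 8 h 6 of the 10 were lower and 1 higher in KO cells, where 52.1% of all genes passed (8.97% higher, 43.1% lower). In WT cells 4 were lower and 0 higher in that interval, where 61.7% of all genes passed (6.9% higher, 54.8% lower). With median-ratio scaling that interval had 3 higher (Mdm4, Btg2 and Ei24) and 2 lower (Trp53 and Ccng1) in KO cells, and 4 higher (Mdm2, Cdkn1a, Btg2 and Ei24) and 1 lower (Trp53) in WT cells. Of all tested genes that scaling had 28.8% higher and 20.8% lower in KO cells, and 28.9% and 22.5% in WT cells. Unscaled, the median of the 10 was -1.69 in KO and -1.78 in WT cells at 8 h. Under median-ratio scaling KO cells had 1 of the 10 higher and 6 lower at 8 h, while WT cells had 3 higher and 4 lower. Of 11152 tested genes 4319 were then higher and 4537 lower in KO cells, and 4201 and 4588 in WT cells. At 4 h that scaling left 2 of the 10 higher and 4 lower in each genotype. Of all tested genes it left 4142 higher and 3845 lower in KO cells, and 4075 and 3931 in WT cells. Of the 10, the higher gene at 8 h was Ei24 in KO cells, while in WT cells Ei24 (1.54), Btg2 (0.53) and Zmat3 (0.43) were higher. By 8 h the lowest mean share left in WT cells was that of Trp53, and Phlda3 had 11.6% left in KO cells, a value that rests on libraries of 1.34 and 0.43 TPM, and 18.5% in WT cells.

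Set KO against WT, 0 of the 10 genes passed at 0 h by limma, while 25.7% of all tested genes did (14.3% higher, 11.5% lower), and 2 of the 10, Btg2 and Gadd45a, had an unadjusted p under 0.05, against 36.2% of all genes. Both also passed when the 0 h libraries were fitted alone, and Btg2 passed after median-ratio scaling. At 4 h Trp53 and Ccng1 were higher and Btg2 lower, 3 of 10, where 38.6% of all genes passed (24.9% higher, 13.7% lower). At 8 h Trp53, Mdm4 and Ccng1 were higher and Btg2 and Gadd45a lower, 5 of 10, where 49.4% passed, 37.3% of all genes being higher and 12.1% lower. Scaled by median ratios, 3 rose and 5 fell at 8 h, with Mdm2, Cdkn1a and Zmat3 added to the lower genes. Of 11152 tested genes 2866 were higher and 2621 lower under that scaling. Before scaling, the share past the threshold was below the background at 0 h and near it at 4 and 8 h, and the genes went both ways. At 8 h the median difference was -0.04 over the 10 and 0.20 over all tested genes.

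**Figure D4:**
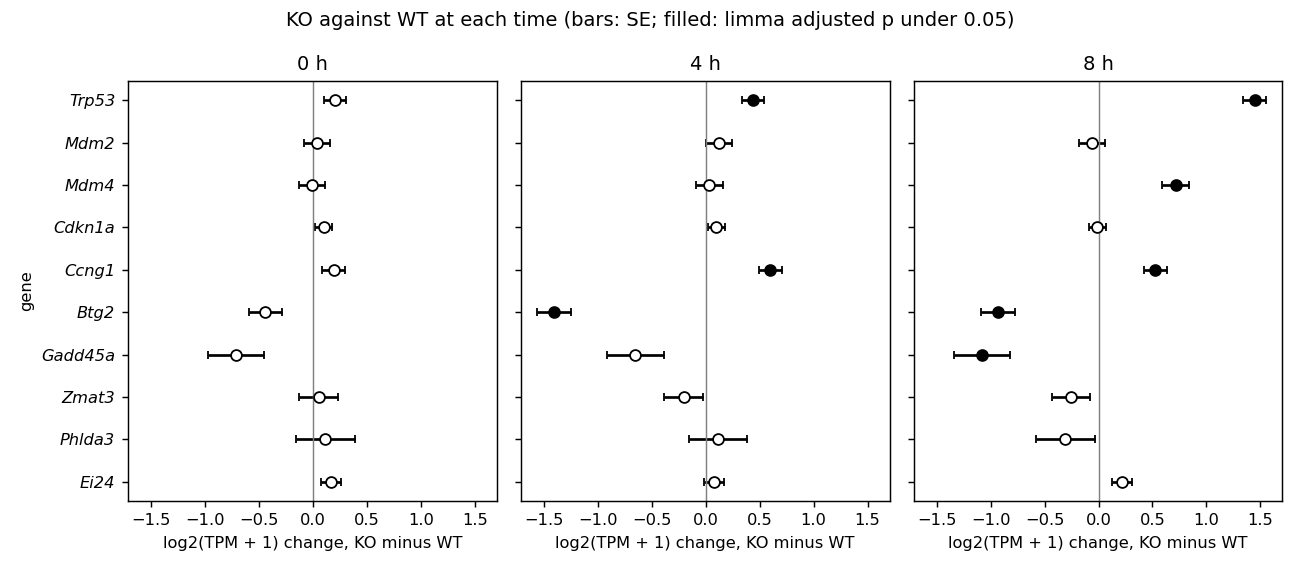
Log2(TPM + 1) difference of KO minus WT cells (horizontal axis) at 0, 4 and 8 h for each gene, with standard errors as bars and filled points for limma adjusted p under 0.05. No point is filled at 0 h, 3 are at 4 h and 5 at 8 h, with Trp53 at 1.45 and Gadd45a at -1.08 as the ends at 8 h.

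The difference between the genotypes in the 0 to 8 h change passed for Trp53 and Mdm4, 2 of 10, where 19.9% of all genes passed. Of the 10, 2 were positive past the threshold, against 17.3% of all genes, and 0 were negative past it, against 2.63%. After median-ratio scaling Trp53 and Mdm4 remained higher, and Cdkn1a (-0.37) and Btg2 (-0.80) were lower. Under that scaling 999 of 11152 tested genes were higher and 879 lower. For the 0 to 4 h changes 0 of 10 passed by limma, where 0.35% of all genes did (0.0538% higher, 0.296% lower), and 2 of the 10, Ccng1 and Btg2, had an unadjusted p under 0.05, against 15.8% of all genes. The 0 h libraries enter both differences. Over 4 to 8 h Trp53 and Mdm4 passed, again 2 of 10 and both positive, where 12.4% of all genes passed (10.7% higher, 1.72% lower).

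**Figure D5:**
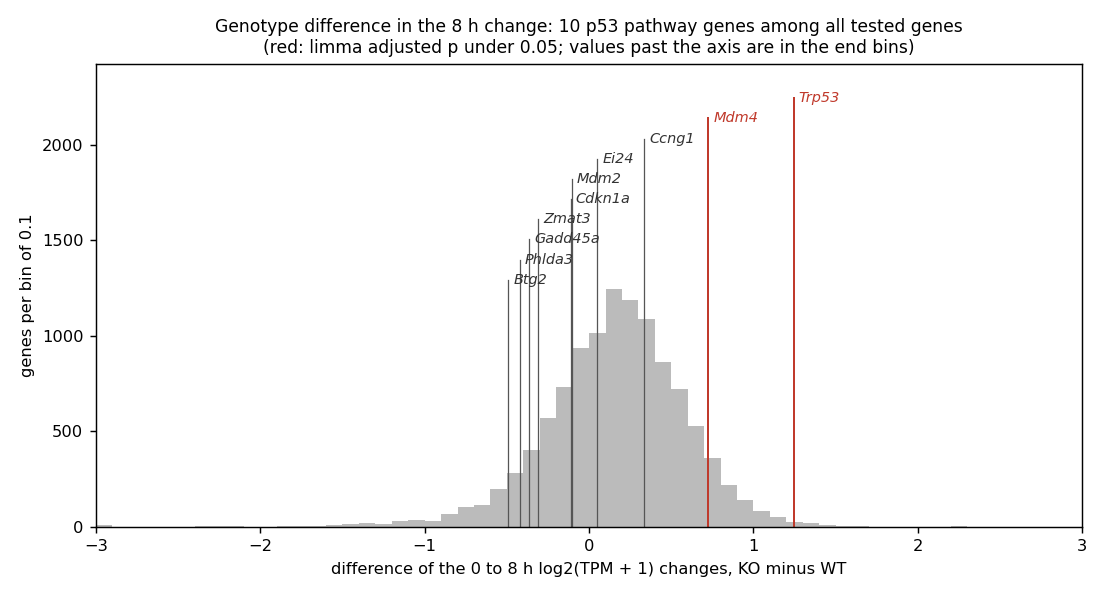
Histogram of the difference between the 0 to 8 h log2(TPM + 1) changes, KO minus WT, over 11152 tested genes (grey bars, bins of 0.1), with lines for the 10 genes and red for limma adjusted p under 0.05. Trp53 at 1.25 lies in the right tail and Mdm4 at 0.73 on the right shoulder, while the median of all genes is 0.18.

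In order of level at 0 h, KO cells had Cdkn1a, Trp53, Ccng1, Mdm2, Ei24, Mdm4, Gadd45a, Btg2, Phlda3 and Zmat3, on means of 168 to 4.70 TPM, and TPM is per length. Only Gadd45a and Btg2 overlapped as neighbours in that order. WT cells had the same order except that Mdm4 came before Ei24, and there Cdkn1a overlapped Trp53, Trp53 overlapped Ccng1, and Mdm4 overlapped Ei24. At 8 h Trp53 led the 10 in KO cells with a mean of 60.9 TPM, and in WT cells it was the fourth with 21.7 TPM.

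Profiles over the 12 libraries were compared with those of 7677 other genes of at least 5 TPM on average, as the root-mean-square distance of log2 profiles centred on their own means. Nearest to Trp53 were Ppm1g (0.08), Trim28 (0.09) and Abcf1 (0.11). Nearest to Mdm2 were Rasa1 (0.09), Ncoa3 (0.11) and Dennd4a (0.11). Csf2rb (0.06), Kidins220 (0.08) and Dgkd (0.09) were nearest to Cdkn1a, and Oxa1l, Stat5b and Slain2 (0.09 each) to Ccng1. None of these neighbours is a member of the 10, and Csf2rb has a near-identical copy, Csf2rb2, with which it may share reads.

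Beyond the 10, 64 other genes of the pathway were listed and 61 were tested. In KO against WT cells at 0 h 12 were higher and 7 lower, 19.7% and 11.5% of the list, against 14.3% and 11.5% of all genes. The count of 19 was 11 without KO 0 h replicate 1 and 10 without KO 0 h replicate 2. Among 12 apoptosis genes 3 rose and 2 fell. Perp, a membrane protein of the apoptosis branch, had 242 and 241 TPM in KO libraries, against 75.6 and 86.7 TPM in WT libraries, a log2 change of 1.57 ± 0.08 (SE, limma adjusted p = 6.1e-08). Dram1, a lysosomal protein of autophagy, had 5.98 and 6.78 TPM in KO and 20.5 and 25.5 TPM in WT libraries (-1.70 ± 0.14, adjusted p = 2.7e-06). Perp and Dram1 thus moved in opposite directions. Pmaip1, the BH3-only protein NOXA, was higher by 0.35 ± 0.09 (adjusted p = 0.0135), which did not pass once WT 0 h replicate 1 (0.0865), KO 0 h replicate 1 (0.108) or KO 0 h replicate 2 (0.0516) was left out.

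Among 12 cell cycle arrest genes 1 rose and 2 fell at 0 h, 8.33% and 16.7% against 14.3% and 11.5% of all genes. Sesn1, a sestrin that restrains mTORC1, was higher in KO cells by 0.65 ± 0.15 (SE, limma adjusted p = 0.0083), and the call was lost without WT 0 h replicate 1 (0.075) or KO 0 h replicate 1 (0.0665). The tetraspanin Cd82 was lower at -0.33 ± 0.07 (0.0042), and not past the threshold without KO 0 h replicate 2 (0.0626). Trp53inp1 was lower at -0.51 ± 0.16 (0.034), which did not pass with WT 0 h replicate 2 (0.201), KO 0 h replicate 1 (0.23) or KO 0 h replicate 2 (0.0694) left out, with no filter (0.0647) or with a pseudocount of 0.1 (0.0662). DNA repair genes had 0 of 7 past the threshold. Of 8 genes of metabolism and secretion 3 were higher and 2 lower, with Rps27l at 0.44 ± 0.06 (0.00035), the secreted thrombospondin Thbs1 at -0.69 ± 0.09 (1e-04) and the cytokine Gdf15 at -0.81 ± 0.19 (0.0088). The Gdf15 call was lost without WT 0 h replicate 2 (0.0574) or KO 0 h replicate 2 (0.0695) and with a pseudocount of 0.1 (0.0664).

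Among 22 upstream regulators 5 rose and 1 fell at 0 h, 22.7% and 4.55% against 14.3% and 11.5% of all genes. Rpl11 and Rpl5, ribosomal proteins that bind and inhibit MDM2 when ribosome assembly is disturbed, were higher in KO cells by 0.39 ± 0.06 and 0.35 ± 0.06 (SE, limma adjusted p = 0.00067 and 0.00083). Rpl5 had 931 and 937 TPM in KO libraries, against 698 and 765 TPM in WT libraries, and ribosomal protein genes have many processed pseudogenes that may share their reads. Cdkn2a, whose locus encodes the MDM2 inhibitor p19ARF and the kinase inhibitor p16INK4A, had 36.1 and 38.7 TPM in KO and 21.0 and 31.25 TPM in WT libraries (0.53 ± 0.13, adjusted p = 0.012). Its call was lost without KO 0 h replicate 2 (0.084).

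After 4 h of actinomycin D 48 of the 61 were lower and 4 higher in KO cells, and 49 lower and 4 higher in WT cells, against 68% lower and 4.88% higher of all genes in KO and 71% and 6.77% in WT cells. Scaled by median ratios, 31 were lower and 15 higher in KO cells, against 3845 and 4142 of all 11152 tested genes. In WT cells 32 were lower and 15 higher under that scaling, against 3931 and 4075 of all tested genes. After 8 h 52 fell and 6 rose in KO cells, and 54 fell and 4 rose in WT cells, so that 85.2% were lower in KO and 88.5% in WT cells, against 75.4% and 80.2% of all genes in KO and WT cells. Median-ratio scaling turned this into 19 higher and 33 lower in KO cells, against 4319 and 4537 of all 11152 tested genes. In WT cells it gave 18 higher and 32 lower, against 4201 and 4588 of all tested genes. At 8 h in KO cells 11 of 12 arrest genes, 9 of 12 apoptosis genes, 6 of 7 DNA repair genes, 6 of 8 genes of metabolism and secretion and 20 of 22 upstream regulators were lower. In KO cells the translesion polymerase Polh changed by -4.15 ± 0.20 (SE, limma adjusted p = 1.1e-09), the mitotic protein Gtse1 by -3.79 ± 0.15 (3.1e-10) and the BH3 protein Bid by -3.56 ± 0.11 (7.4e-11). Apaf1, the apoptosome scaffold, changed by -3.40 ± 0.13, the sestrin Sesn2 by -3.23 ± 0.13, and the deubiquitinase of MDM2 and p53, Usp7, by -2.86 ± 0.10. Also lower were Ep300 (-2.99), Daxx (-2.96), Tigar (-2.77), Ckap2 (-2.50), Gdf15 (-2.22), Xpc (-2.05) and Thbs1 (-1.58). Aen (-1.11) and the replication clamp Pcna (-0.66) fell by less than the median gene, and both were higher after median-ratio scaling (0.24 and 0.76).

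At 4 h 21 of the 61 were higher and 10 lower in KO than in WT cells, against 24.9% and 13.7% of all genes. At 8 h 24 were higher and 7 lower in KO than in WT cells, 39.3% and 11.5% against 37.3% and 12.1% of all genes. Median-ratio scaling left 17 higher and 13 lower, against 2866 and 2621 of all 11152 tested genes. Of the 24 higher genes 12 were upstream regulators, of 22 tested, 54.5% against 37.3% of all genes. After that scaling 8 of these 22 were higher and 3 lower. The difference of the 0 to 8 h changes passed in 7 that were positive and 2 that were negative, 11.5% and 3.28% against 17.3% and 2.63% of all genes. Of the 7 positive genes, Cop1 and Ube4b encode ubiquitin ligases reported to act on p53, with differences of 0.87 ± 0.16 and 0.79 ± 0.14 (SE, limma adjusted p = 0.0032 and 0.0026). Bid had 0.80 ± 0.15 (0.0042), Perp 0.67 ± 0.11 (0.0024), Rpl5 0.44 ± 0.08 (0.0039) and Pcna 0.44 ± 0.08 (0.0042), and Rpl5 and Pcna did not pass after median-ratio scaling (0.0514 and 0.0652). Sfn, which encodes 14-3-3 sigma, had 1.15 ± 0.30 (0.0179), and did not pass with WT 0 h replicate 2 (0.0859), KO 0 h replicate 2 (0.0656) or KO 8 h replicate 1 (0.0595) left out, nor with no filter on low values (0.0575). The count of 9 was 14, all positive, without WT 0 h replicate 1, and 5 positive and 10 negative after median-ratio scaling. That scaling gave 999 positive and 879 negative among all 11152 tested genes. For the 0 to 4 h changes 0 of the 61 passed by limma, and 18 had an unadjusted p under 0.05, against 15.8% of all genes. After median-ratio scaling 4 of the 61 passed, against 1.43% of all genes.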

How the data were processed

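The 12 deposited columns hold TPM per gene, which the authors made with STAR, RSEM and the mm10 genome, per the submitters' processing notes. Tool versions, annotation and strand setting: not given in the sources used here. Per the labels' protocols, TRIzol was used for RNA and a stranded mRNA kit for the libraries. TPM keep no depth, so no counting interval was given.

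From these TPM, 11152 genes (a minimum of 1 TPM in 2 or more libraries) were analysed as log2(TPM + 1) with limma 3.58.1 in R 4.3.3, using 1 mean per group over 12 libraries, 6 residual degrees of freedom and a trend in the prior spread. P-values were adjusted by Benjamini-Hochberg across all tested genes, with a threshold of 0.05. Errors are SE. Ratios of TPM were tested by exact permutation. The genes, lists and tests were chosen with earlier results of these data known. The interval from 4 to 8 h was chosen after seeing the data.

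Besides the 10 genes and Tet2, named pathway genes were, per role group, the 3 of smallest p in KO against WT at 0 h, in KO at 8 h against 0 h and in the 0 to 8 h difference, if past the threshold, of at least 5 TPM on average and without overlap between compared groups. Alternatives were median-ratio scaling, other filters and pseudocounts, no trend, a replicate block, the compared groups alone and leaving out a library. Positions and 3' ends are those of GENCODE M21 (GRCm38), which may differ from the authors' annotation. For Mdm4, Cdkn1a, Gadd45a and Ei24, reads of overlapping genes on the other strand cannot be told apart, since the strand setting is unknown. The summed levels of some other marker lists are not reported here.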

Additional observations from a re-analysis of the deposited data

Results flagged for a closer look

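For 2 genes the change over 8 h of actinomycin D differed between KO and WT cells by a test of the difference itself, 2 of 10, where 19.9% of all tested genes passed. Trp53 had a difference of 1.25 on the log2 scale (limma adjusted p = 0.0004), with both KO libraries above both WT libraries at 8 h. Mdm4 had 0.73 (adjusted p = 0.0125), likewise without overlap at 8 h. The groups of 2 libraries are too small for a test of single outlying libraries.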

How the results depend on the processing

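Trp53 and Mdm4 kept the direction of their called differences between KO and WT cells under every alternative run. Calls of single genes changed in some alternatives, and the cause was not tested. TPM keep no depth, so the precision of low genes such as Phlda3 is unknown, and 2 libraries a group leave the spread poorly known.

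Counts among the 10 genes moved as follows. For KO against WT at 0 h the count of 0 became 1 after median-ratio scaling, 1 with a mean of at least 5 TPM and 2 when the compared groups were fitted alone, and lay at 0 to 1 with a library left out. After scaling 24.9% of all tested genes passed at 0 h. At 8 h the count was 8 after scaling, against 2866 higher and 2621 lower of 11152 tested genes. For the 0 to 4 h difference it was 1 after scaling, against 1.43% of all genes. For the 0 to 8 h difference it was 4 after scaling and 1 to 3 with a library left out.

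In the pathway list, the 19 genes at 0 h became 10 to 19 with a library left out. The WT 4 h count was 34 with a mean of at least 5 TPM, a filter that tests fewer genes. For the 0 to 4 h difference the list had 4 after scaling, 1 with that filter, 1 with the compared groups alone, and 0 to 3 with a library left out. For the 0 to 8 h difference it had 15 after scaling and 6 to 14 with a library left out.

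Median-ratio scaling turned these log2 values round. For KO against WT they were Mdm4 at 4 h (-0.055), Ei24 at 4 h (-0.015) and Ei24 at 8 h (-0.052). At 4 h against 0 h they were Trp53 (0.38), Ccng1 (0.15) and Ei24 (0.83) in KO cells, and Trp53 (0.21) and Zmat3 (0.061) in WT cells. At 8 h against 0 h they were Trp53 (0.024), Ei24 (1.34), Aen (0.24) and Pcna (0.76) in KO cells, and Btg2 (0.53), Zmat3 (0.43) and Ei24 (1.54) in WT cells. Among differences they were Mdm4 (-0.029), Gadd45a (-0.042) and Phlda3 (-0.044) over 0 to 4 h, and Ei24 (-0.20) over 0 to 8 h. A pseudocount of 0.1 gave Gadd45a -0.014 over 0 to 4 h.

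With 1 library left out, these uncalled values crossed 0. KO against WT at 0 h ranged from -0.051 to 0.13 for Mdm2, -0.085 to 0.064 for Mdm4, -0.17 to 0.28 for Zmat3 and -0.20 to 0.43 for Phlda3. At 4 h Ei24 ranged from -0.028 to 0.19. At 8 h Mdm2 ranged from -0.20 to 0.072, Cdkn1a from -0.057 to 0.031 and Phlda3 from -0.66 to 0.049. Ei24 against 0 h ranged from -0.091 to 0.12 in WT cells at 4 h and from -0.14 to 0.013 in KO cells at 8 h. The 0 to 4 h difference ranged from -0.0069 to 0.18 for Mdm2, -0.030 to 0.12 for Mdm4, -0.0997 to 0.0964 for Cdkn1a, -0.40 to 0.52 for Gadd45a, -0.32 to 0.32 for Phlda3 and -0.20 to 0.016 for Ei24. Over 0 to 8 h it ranged from -0.24 to 0.031 for Mdm2 and -0.025 to 0.13 for Ei24.

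The replicate numbers did not pair the libraries: correlations of replicate differences between groups ran from -0.0834 to 0.0505. With the replicate number as a block, the counts among the 10 genes were 0, 3 and 5 for KO against WT at 0, 4 and 8 h, 9 for each time against 0 h in either genotype, and 0 and 2 for the differences, as without the block. In the pathway list the block gave 51 in KO cells at 4 h, against 52 without it.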
